A study of Mus musculus with 9 samples.

Results

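The Ifit and Ifitm genes were examined as 2 families of interferon-induced antiviral genes, namely Ifit1, Ifit2, Ifit3 and Ifit3b on chromosome 19 and Ifitm1, Ifitm2, Ifitm3, Ifitm6 and Ifitm10 on chromosome 7. These 9 genes of the 50686 in the deposited count tables were chosen by family name, on a list drawn up with their fold changes between the lines already known, so their calls are given as a description. The libraries came from bone marrow cells of the mouse strain background C57BL/6N, transformed by the oncogene BCR/ABLp185, which all 3 groups carry, and kept in RPMI medium with serum. The groups were wt cells, Stat5a-/- cells (labelled STAT5A-ko) and Stat5b-/- cells (labelled STAT5B-ko), and the labels name no interferon or drug treatment for any of them. Each genotype was represented by 1 cell line with 3 technical replicates, 9 libraries in all, so every test below compares 3 lines and measures only the spread between technical replicates. A difference between lines that has no link to the genotype cannot be told apart from one that has.

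Cells that bind type I interferon activate transcription factors that turn on genes with the interferon-stimulated response element, while type II interferon acts mainly through the gamma-activated site. IFIT proteins lie in the cytoplasm, where they bind foreign RNA, including RNA whose cap lacks methylation, and the translation factor eIF3. IFITM proteins are small membrane proteins that hold back the entry of enveloped viruses at the cell surface and in endosomes.

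In these libraries 6 of the 8 members that could be tested were higher in the Stat5b-/- line than in wt, Ifitm2 was lower and Ifit2 was not called, where 24.2% of all tested genes were called higher and 22% lower. The members did not share 1 order of the lines. Ifitm1 was far higher in the Stat5a-/- line than in the Stat5b-/- line, while Ifit1, Ifit3, Ifitm3 and Ifitm10 were highest in the Stat5b-/- line. Ifitm2, the most abundant member per length in every line, was lower in Stat5b-/- than in wt, while Ifitm1 and Ifitm3 beside it were higher.

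The deposited values were whole-number read counts, with 11948136 to 19016396 counted reads in a library. Counts of replicates of the same line differed beyond sampling noise (chi-square per degree of freedom of 4.63 to 28.0). Levels below are normalized CPM, that is, reads per library total scaled with TMM factors, and tests are edgeR's quasi-likelihood test over the 13852 genes left by its low-count filter, with Benjamini-Hochberg adjustment over all of them. A gene was called at an adjusted p under 0.05. Stat5a was lower in the Stat5a-/- line than in wt (log2 fold change -1.80, adjusted p = 4.69e-07) and Stat5b was lower in the Stat5b-/- line (-0.73, adjusted p = 1.69e-04), each in the direction of its label. Neither was at 0. Stat5a had 12.4 ± 1.02 normalized CPM (SD, n = 3) in the Stat5a-/- line against 43.1 ± 6.35 in wt. Stat5b had 63.4 ± 7.72 in the Stat5b-/- line against 105.5 ± 1.96 in wt. The 9 B lineage markers summed to 4655 to 4962 normalized CPM in wt, 6558 to 7278 in Stat5a-/- and 5788 to 6635 in Stat5b-/- libraries. All 9 were detected, and 6 were called higher and 1 lower in Stat5b-/- against wt, and 7 and 0 in Stat5a-/- against wt. Over all tested genes, 24.2% were called higher and 22% lower in Stat5b-/- against wt, and 19.8% and 16.3% in Stat5a-/- against wt. Cd79a and Pax5 were the most abundant. Reads of T-cell genes were present too. The sum of 15 T-cell markers was 723 to 991 in wt, 1309 to 1520 in Stat5a-/- and 1663 to 2355 in Stat5b-/- libraries, and none of the 15 was at 0. In bulk RNA, fewer cells of a type and less RNA per cell cannot be told apart.

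The promoters of the families were searched for the core of the interferon-stimulated response element, which is GAAA, any 2 bases and GAAA again, and for the gamma-activated site, TTCNNNGAA, on both strands. The windows were those of RefSeq on GRCm38.p6, from 250 bases before each gene's start to 50 bases after it, and all 9 members matched a window. The first motif was found in 3.44% of 32851 such windows and the second in 8.3%. Ifit1, Ifit3 and Ifit3b each held 2 copies of the response element core within 200 bases upstream of their start, and Ifitm2 held 1. Of the 5 members with a response element core, Ifit1, Ifit3, Ifit3b and Ifitm3, with 2 each, were higher in Stat5b-/- than in wt, and Ifitm2 was lower. Of the 4 members without this core, Ifitm1 and Ifitm10 were higher, Ifit2 was not called and Ifitm6 was below the filter. The members were listed with their calls known, and 24.2% of all tested genes were called higher and 22% lower, so nothing is read from this tally. The stretches around the upstream matches are shown for the 4 members that hold them, with the matches in capitals and the gene's strand read 5′ to 3′. In the Ifit genes the core lay on the opposite strand, so it reads there as TTTC, any 2 bases and TTTC. The letters of the Ifitm2 match differ from those of the Ifit genes.
Ifit1 (chr19:34640775-34640823, plus strand): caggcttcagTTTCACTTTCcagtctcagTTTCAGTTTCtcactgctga
Ifit3 (chr19:34583363-34583426, plus strand): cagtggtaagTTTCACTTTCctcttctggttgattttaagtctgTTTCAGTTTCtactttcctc
Ifit3b (chr19:34607759-34607822, plus strand): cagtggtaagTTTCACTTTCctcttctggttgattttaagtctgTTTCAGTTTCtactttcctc
Ifitm2 (chr7:140955988-140956017, minus strand): ccaccaacagGAAAAGGAAAttgctagaga
The Ifit3 and Ifit3b stretches were identical over all 64 bases. In both, the first bases of the matches lay 34 bases apart, against 19 in Ifit1, and the letters of the first match and of the second match were the same in all 3 genes. The upstream matches of Ifit1 also lay inside a window of Ifit1bl2, which is read from the opposite strand.

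Ifitm3 held its matches after the annotated start, within the first exon. They began 2 and 19 bases after the start, and a gamma-activated site that began 13 bases after it overlapped the second by 3 bases, so that the run below is all match but for 1 base.
Ifitm3 (chr7:141010716-141010742, minus strand): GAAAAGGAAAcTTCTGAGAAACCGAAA
Ifitm1, the member with the highest fold change, held neither motif in its window, which runs from 140967826 to 140968125. That window was set by a RefSeq start inside the counted gene model, which begins at 140967221. Sequence before the first base of that model was not searched. A stretch upstream of the RefSeq start is shown for comparison.
Ifitm1 (chr7:140967936-140968015, plus strand): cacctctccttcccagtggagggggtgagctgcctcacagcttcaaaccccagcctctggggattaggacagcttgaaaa
Ifit2 held a gamma-activated site in 1 of its 2 windows, 241 bases before the start, and Ifitm6 held 1, 10 bases before the start. The Ifitm6 window, 141016843 to 141017142, also lies inside the counted gene model, which begins at 141017924 on the minus strand. Neither motif was found in the 3 windows of Ifitm10. These letters do not show that a factor bound there, and their absence from a window says nothing about a site elsewhere.

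Ifit1 (ENSMUSG00000034459.8, chromosome 19 from 34640871 to 34650009 of GRCm38, plus strand) encodes the family member known for binding RNA with an incomplete cap. Its levels were 2.47, 3.38 and 4.68 normalized CPM in the wt libraries, 6.01, 6.75 and 6.22 in Stat5a-/- and 12.2, 9.02 and 14.1 in Stat5b-/-. The lines did not overlap, with wt lowest and Stat5b-/- highest, and 39 to 185 reads stood behind each value. On the log2 scale Ifit1 differed from wt by 1.74 (SE 0.22, adjusted p = 3.44e-05) in Stat5b-/- and 0.84 (SE 0.24, adjusted p = 0.0131) in Stat5a-/-. The direct comparison of Stat5b-/- with Stat5a-/- gave 0.89 (SE 0.22, adjusted p = 0.00697). The comparisons with wt share the 3 wt libraries.

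Ifit3 (ENSMUSG00000074896.3, chromosome 19 from 34583531 to 34588731, plus strand), whose product is known as a partner of IFIT1 in people, had 1.65, 2.17 and 2.25 normalized CPM in wt, 2.66, 5.53 and 2.43 in Stat5a-/- and 8.02, 8.06 and 9.60 in Stat5b-/-. All Stat5b-/- libraries lay above all others, and 1 Stat5a-/- library stood above the other 2 of its line. Ifit3 was higher in Stat5b-/- than in wt by 2.07 on the log2 scale (SE 0.27, adjusted p = 3.84e-05) and than in Stat5a-/- by 1.27 (SE 0.26, adjusted p = 0.00242). The Stat5a-/- value against wt was 0.80 (SE 0.30, adjusted p = 0.0520) and did not pass the threshold. Without Stat5a-/- replicate 2, the high library, it was 0.31.

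Ifit3b (ENSMUSG00000062488.9, chromosome 19 from 34607970 to 34613401, plus strand), a close copy of Ifit3, was counted at 7 to 27 reads in a library. It had 0.444, 0.505 and 0.404 normalized CPM in wt, 1.12, 0.814 and 0.811 in Stat5a-/- and 1.51, 1.03 and 2.06 in Stat5b-/-. Both knockout lines lay above wt and overlapped each other. Against wt the log2 fold change was 1.73 (SE 0.34, adjusted p = 0.00111) in the Stat5b-/- line and 1.02 (adjusted p = 0.0525) in the Stat5a-/- line, and the direct comparison gave 0.71 (adjusted p = 0.107). The genes of this pair share sequence. Of the 50-base windows of Ifit3, 51.2% also occur in Ifit3b, and reads that map to several places were not counted. Their counts thus come from the remaining sequence, and their levels per length are understated. With the reads of both genes summed, the Stat5a-/- difference from wt was 0.84 (adjusted p = 0.0195) and passed the threshold.

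Ifit2 (ENSMUSG00000045932.12, chromosome 19 from 34550694 to 34576419, plus strand) was the Ifit member with the highest level per length in wt, and was called in no comparison. Its values were 17.4, 19.3 and 15.8 normalized CPM in wt, 22.0, 19.6 and 22.9 in Stat5a-/- and 17.4, 24.8 and 24.3 in Stat5b-/-. The Stat5b-/- libraries overlapped both other lines. Against wt, Ifit2 had a log2 fold change of 0.34 (SE 0.15, adjusted p = 0.0787) in the Stat5b-/- line and of 0.29 (SE 0.15, adjusted p = 0.147) in the Stat5a-/- line. The knockout lines differed by 0.045 (adjusted p = 0.842). Without Stat5b-/- replicate 1, the low library of its line, Ifit2 passed the threshold against wt at 0.46 (adjusted p = 0.0156).

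**Figure D1:**
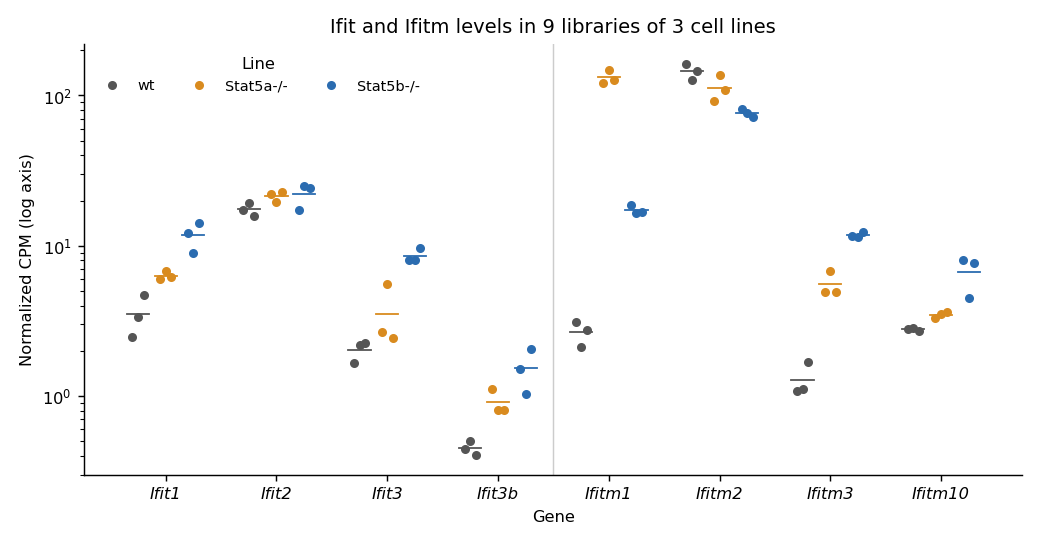
Normalized CPM (log axis) of the 8 tested members in each library, with wt in grey, Stat5a-/- in orange and Stat5b-/- in blue. Points are single libraries and short lines are means of 3. Ifitm1 stands between 121 and 148 in the Stat5a-/- line and between 16.5 and 18.6 in the Stat5b-/- line, while Ifit1, Ifit3, Ifitm3 and Ifitm10 are highest in Stat5b-/-.

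Another 4 genes of these families lie outside the list, and 1 of them, Ifit1bl1, passed the filter. It lies between Ifit3 and Ifit3b on the opposite strand. Ifit1bl1 had 5.96, 11.0 and 10.1 normalized CPM in wt, 33.1, 36.5 and 29.4 in Stat5a-/- and 26.1, 20.4 and 26.8 in Stat5b-/-. Both knockout lines lay above wt, and the Stat5a-/- line lay above the Stat5b-/- line. The log2 fold change of Ifit1bl1 was 1.86 (SE 0.20, adjusted p = 6.34e-06) in Stat5a-/- and 1.43 (SE 0.20, adjusted p = 6.07e-05) in Stat5b-/-, and the direct comparison gave -0.44 (adjusted p = 0.0885), which was not called. Ifit1bl2 had 2 to 11 reads in a library and Ifitm5, the bone-related member, 1 to 5, and Ifitm7 on chromosome 16 had 0 reads in every library.

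Per length, the Ifit genes summed to 11.2 ± 1.76 normalized CPM per kb in wt, 24.9 ± 2.11 in Stat5a-/- and 26.6 ± 2.97 in Stat5b-/- (SD, n = 3 each). The sum was thus about as high in either knockout line, but its make-up was not. Ifit1bl1 held 58.1% ± 1.68 of it in Stat5a-/- and 40.2% ± 3.45 in Stat5b-/-, against 34.8% ± 5.53 in wt. Ifit3 held 18.4% ± 0.784 in Stat5b-/-, 7.97% ± 3.20 in Stat5a-/- and 10.4% ± 0.545 in wt. The share of Ifit2 was 40.4% ± 7.05 in wt, 22.1% ± 3.53 in Stat5a-/- and 21.4% ± 4.66 in Stat5b-/-, while its own level was called in no comparison. These shares were not tested, and for Ifit3 and Ifit3b the counts that shared sequence removes also lower them.

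Over the 466 other tested genes of chromosome 19, the median log2 fold change of Stat5a-/- against wt was 0.40, against -0.0020 for genes elsewhere. Of these 466 genes, 47.6% were called higher and 6.22% lower, against 19.8% and 16.3% of all tested genes. In Stat5b-/- against wt the chromosome 19 median was 0.028, and in Stat5b-/- against Stat5a-/- it was -0.43. The Stat5a-/- values of Ifit1, Ifit2, Ifit3 and Ifit3b lay between 0.29 and 1.02, on both sides of that median, and the part of the chromosome-wide difference in them was not tested. Lipa, 23.2 kb before the Ifit genes, was 0.54 higher in Stat5a-/- than in wt (adjusted p = 0.00155) and 0.094 in Stat5b-/- (adjusted p = 0.508). Pank1, 161 kb after them, fell by 2.51 on the log2 scale in Stat5a-/- (adjusted p = 3.30e-07) and by 2.92 in Stat5b-/- (adjusted p = 8.34e-08).

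Ifitm1 (ENSMUSG00000025491.14, chromosome 7 from 140967221 to 140969825, plus strand), which acts mainly at the cell surface, gave the largest difference of the members. It had 3.11, 2.12 and 2.77 normalized CPM in wt, 121, 148 and 127 in Stat5a-/- and 18.6, 16.5 and 16.9 in Stat5b-/-. No lines overlapped, and 42 to 49 reads in a wt library stood against 1406 to 1821 in a Stat5a-/- library. Ifitm1 was 49.8-fold higher in Stat5a-/- than in wt (log2 fold change 5.64, SE 0.16, adjusted p = 3.27e-11) and 6.53-fold higher in Stat5b-/- (2.71, SE 0.16, adjusted p = 1.68e-08). Stat5b-/- lay below Stat5a-/- by 7.62-fold (log2 fold change -2.93, SE 0.13, adjusted p = 2.74e-09).

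Ifitm3 (ENSMUSG00000025492.6, chromosome 7 from 141009586 to 141010770, minus strand), which acts mainly in endosomes, rose in both knockout lines with the order reversed. Its levels were 1.08, 1.11 and 1.67 normalized CPM in wt, 4.89, 6.83 and 4.96 in Stat5a-/- and 11.6, 11.4 and 12.4 in Stat5b-/-. The lines did not overlap. The log2 fold change of Ifitm3 was 3.19 (SE 0.21, adjusted p = 6.34e-08) in Stat5b-/-, the highest of the members in that line, and 2.10 (SE 0.22, adjusted p = 7.05e-06) in Stat5a-/-. Stat5b-/- exceeded Stat5a-/- by 1.09 (SE 0.18, adjusted p = 5.06e-04).

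Ifitm2 (ENSMUSG00000060591.9, chromosome 7 from 140954837 to 140955987, minus strand), another endosomal member, was lowered. It had 163, 127 and 146 normalized CPM in wt, 92.2, 137 and 108 in Stat5a-/- and 81.1, 76.3 and 71.8 in Stat5b-/-. The Stat5b-/- libraries lay below all others, and the Stat5a-/- libraries overlapped wt. Ifitm2 fell by 0.93 on the log2 scale in Stat5b-/- against wt (SE 0.14, adjusted p = 1.42e-04) and by 0.56 against Stat5a-/- (SE 0.14, adjusted p = 0.00866). Stat5a-/- against wt gave -0.37 (SE 0.14, adjusted p = 0.0547), which lay at the threshold and moved across it with the processing. Of the exon bases of Ifitm2, 40.9% lie under a second gene model, Gm45717, to which 0 reads were assigned, and 48.5% of its 50-base windows occur in other genes. The recorded settings of the counter ask for neither strand nor shared reads, so reads from such positions were not counted and the level of Ifitm2 is understated.

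Ifitm10 (ENSMUSG00000045777.14, chromosome 7 from 142325837 to 142373753, minus strand), which lies apart from the other Ifitm genes, had 2.79, 2.83 and 2.71 normalized CPM in wt, 3.29, 3.50 and 3.61 in Stat5a-/- and 8.02, 4.51 and 7.69 in Stat5b-/-. The Stat5b-/- libraries lay above the rest, 1 of them nearer to Stat5a-/- than to its own replicates. The log2 fold change of Ifitm10 was 1.27 (SE 0.22, adjusted p = 3.67e-04) in the Stat5b-/- line, 0.31 (adjusted p = 0.332) in the Stat5a-/- line and 0.96 (SE 0.22, adjusted p = 0.00501) between the knockout lines. Ifitm6 did not pass the filter. It had 2, 0 and 1 reads in wt, 1, 0 and 2 in Stat5a-/- and 1, 5 and 8 in Stat5b-/- libraries, that is, 3 reads in wt against 14 in Stat5b-/-. When tested with no filter on low counts, Ifitm6 was higher in Stat5b-/- than in wt by 2.36 on the log2 scale (SE 0.94, adjusted p = 0.0493). Against Stat5a-/- the value was then 1.95 (adjusted p = 0.173). That fit gave far smaller adjusted p-values than the main one for well-counted members. For Ifitm1 in Stat5b-/- against wt it gave 1.11e-52, against 1.68e-08 in the main fit. Little weight can thus be put on the Ifitm6 call.

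**Figure D2:**
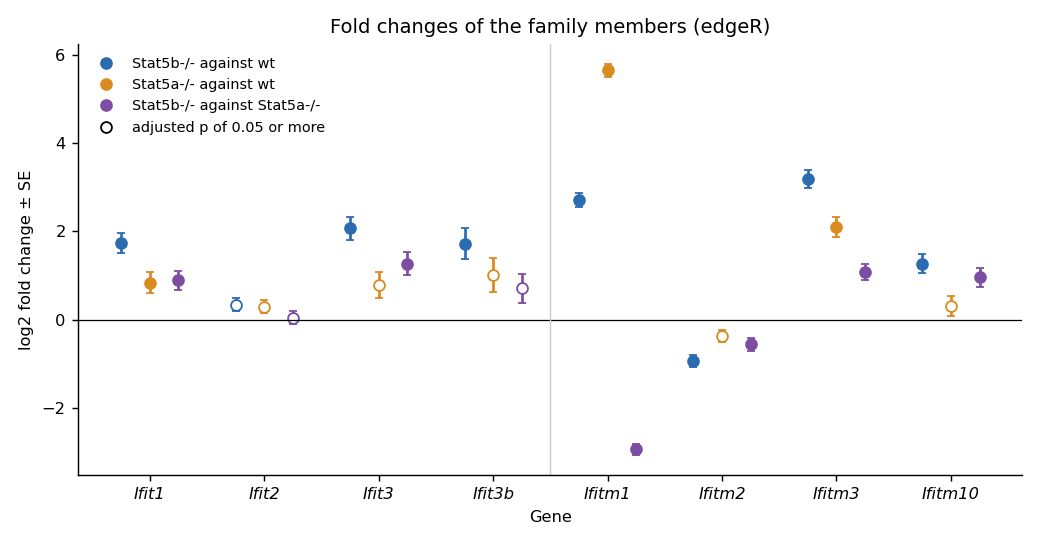
log2 fold changes of the 8 tested members (points, with bars of 1 SE) in Stat5b-/- against wt (blue), Stat5a-/- against wt (orange) and Stat5b-/- against Stat5a-/- (purple), with open points for an adjusted p of 0.05 or more. Ifitm1 reaches 5.64 in Stat5a-/- and is -2.93 between the knockout lines, and Ifitm2 lies below 0 in all 3 comparisons.

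Per length, wt cells held nearly all of their Ifitm transcripts as Ifitm2. Ifitm2 stood at 222 ± 27.3 normalized CPM per kb in wt, 172 ± 34.6 in Stat5a-/- and 117 ± 7.09 in Stat5b-/- (SD, n = 3). Ifitm1 stood at 2.44 ± 0.459, 121 ± 12.9 and 15.8 ± 1.02 in the same order, and Ifitm3 at 1.90 ± 0.494, 8.20 ± 1.63 and 17.4 ± 0.790. Ifitm2 therefore made up 97.7% ± 0.265 of the family in wt, 56.7% ± 2.34 in Stat5a-/- and 76.8% ± 1.40 in Stat5b-/-. Ifitm1 made up 1.07%, 40.3% and 10.4%, and Ifitm3 0.843%, 2.71% and 11.5%. The summed level was 302 ± 49.0 in Stat5a-/-, 227 ± 27.8 in wt and 152 ± 7.24 in Stat5b-/-, so the Stat5b-/- line had the lowest sum. In that line 3 of the 4 tested Ifitm genes were higher than in wt and Ifitm2 lower, against 24.2% and 22% of all tested genes. The Ifitm shares and sums are a description with no test, and they hold with the level of Ifitm2 as counted.

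**Figure D3:**
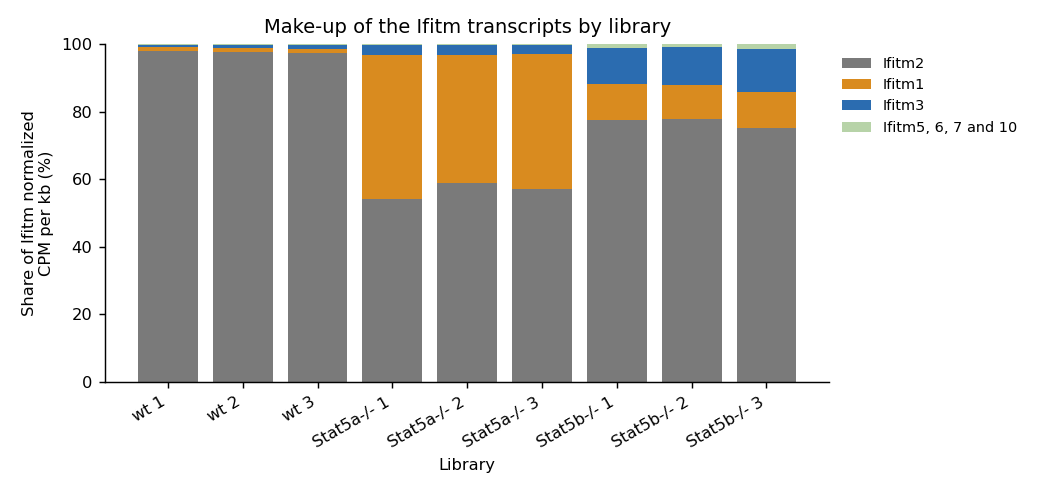
Share of each Ifitm gene in the summed normalized CPM per kb of the family (%), for each of the 9 libraries. Ifitm2 takes 97.4% to 97.9% in wt libraries, 54.2% to 58.8% in Stat5a-/- and 75.2% to 77.8% in Stat5b-/-, and the ranges of the lines do not overlap.

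Counted together, Stat5b-/- against wt had 6 members higher and 1 lower, where 24.2% of all tested genes were called higher and 22% lower. In Stat5a-/- against wt 3 members were higher, Ifit1, Ifitm1 and Ifitm3, and 0 lower, against 19.8% and 16.3% of all genes. That count rose to 5 without Stat5b-/- replicate 3, when Ifit3 and Ifit3b were called as well, and to 6 with an offset for GC content chosen after seeing the data. Between Stat5b-/- and Stat5a-/- 4 members were higher on the Stat5b-/- side and 2 lower, against 16.4% and 17.5%. With a fold change above 2 as a further condition, the counts were 6 and 0 against a background of 10.6% and 8.44%, then 2 and 0 against 7.75% and 6.49%, and then 2 and 1 against 4.81% and 6.6%. The median log2 fold change of the tested members was 1.73, 0.82 and 0.80 in these comparisons, against 0.023, 0.0099 and 0.020 for all genes. The members were listed with such results known, so the counts say nothing beyond the members themselves.

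Of the 15 tested genes within 200 kb of the cluster from Ifitm5 to Ifitm6, which spans 69.0 kb, 4 were higher and 2 lower in Stat5b-/- against wt, where 24.2% and 22% of all tested genes were called. In Stat5a-/- against wt 4 were higher and 0 lower, against 19.8% and 16.3% of all genes. With 15 genes, these counts show nothing particular to the neighbourhood. Pgghg, 1.29 kb from the cluster and the nearest gene on the side of Ifitm5 and Ifitm2, was higher by 1.40 (adjusted p = 4.63e-05) in Stat5b-/- and by 0.73 (adjusted p = 0.00794) in Stat5a-/- on the log2 scale. Pkp3, 60.3 kb away on the other side, was higher by 1.5 (adjusted p = 2.13e-04) and 0.94 (adjusted p = 0.0112). Between the knockout lines Pgghg was higher in Stat5b-/- (0.66, adjusted p = 0.0141), the order of Ifitm3 and not that of Ifitm1, and Pkp3 did not pass the threshold (0.56, adjusted p = 0.0783). Chromosome 7 as a whole was not shifted, with medians between 0.020 and 0.066 over 1073 tested genes. Ctsd, 2.16 kb from Ifitm10, had log2 fold changes of -0.055 in Stat5b-/- and 0.060 in Stat5a-/- and was not called. Of the 6 tested genes within 200 kb of Ifitm10, Ctsd included, 4 were higher and 0 lower in each knockout line against wt, with median log2 fold changes of 0.99 in Stat5b-/- and 0.86 in Stat5a-/-. The highest values in this group, picked after they were seen, were those of Tnni2 (2.34 and 1.80) and Lsp1 (1.68 and 2.10), 68.1 and 87.1 kb away. For comparison, 24.2% and 19.8% of all tested genes were called higher.

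**Figure D4:**
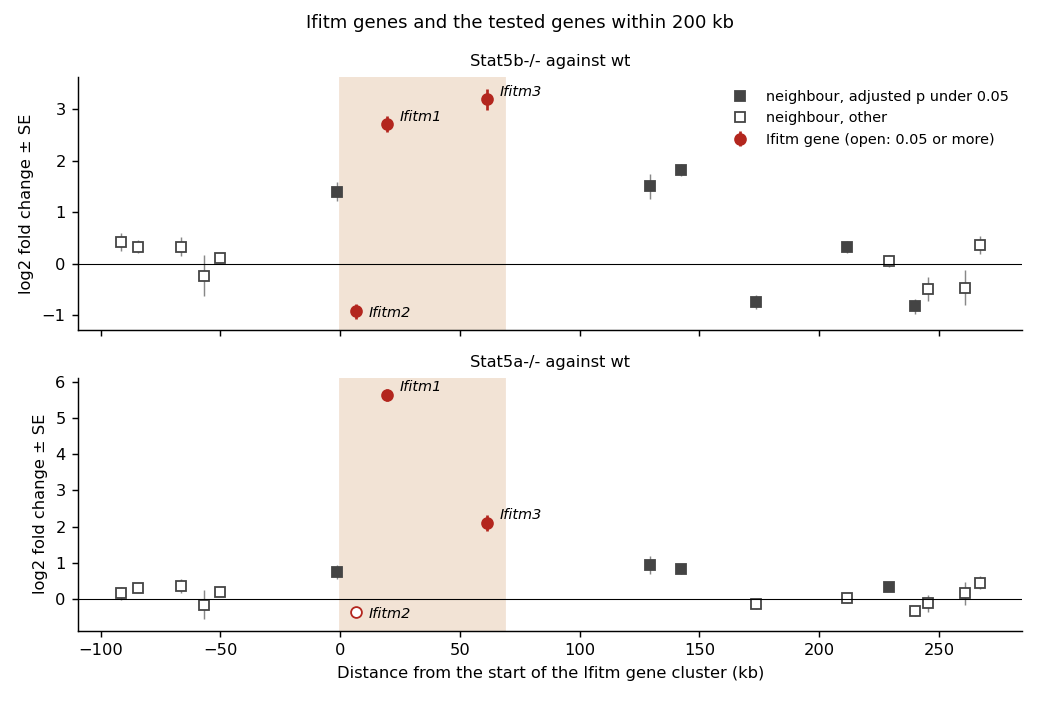
log2 fold changes (with bars of 1 SE) of Ifitm2, Ifitm1 and Ifitm3 (red) and of the 15 tested genes within 200 kb (grey) against distance from the start of the Ifitm cluster in kb, for Stat5b-/- against wt (top) and Stat5a-/- against wt (bottom). Filled points have an adjusted p under 0.05, and the shaded band is the 69.0 kb of the cluster. Ifitm1 stands at 5.64 in the lower panel, where every neighbour lies below 1.

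The pathway around the families was described from 8 lists with 73 genes, of which 53 could be tested. The 20 interferon ligands were below the filter. Ifng had at most 3 reads in a library, Ifnk at most 2 and Ifnab at most 1, and the other 17, Ifnb1 and the Ifna genes among them, had 0 reads in all 9 libraries. Of the 7 receptors and kinases, 5 were higher and 2 lower in Stat5b-/- against wt, where 24.2% and 22% of all tested genes were. Jak1, the kinase shared by both interferon receptors, had log2 fold changes of 0.53 (adjusted p = 2.73e-04) in the Stat5b-/- line and -0.25 (adjusted p = 0.0433) in Stat5a-/-. Ifngr1, a chain of the type II receptor, was higher in both, by 0.66 (adjusted p = 6.83e-05) and 0.48 (adjusted p = 0.00115), and Ifnar1 of the type I receptor in Stat5b-/- by 0.38 (adjusted p = 0.00483), with 0.027 (adjusted p = 0.852) in Stat5a-/-. Ifngr2 was lower in both, at -0.26 (adjusted p = 0.0380) and -0.46 (adjusted p = 0.00175). Tyk2, a kinase of the type I receptor named after its values were seen, was the other lower gene in Stat5b-/-, at -0.44 (adjusted p = 0.0271).

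Of the 8 interferon-activated transcription factors, 6 were higher and 0 lower in Stat5b-/- against wt, and 7 were called above their Stat5a-/- level in the Stat5b-/- line, against 24.2%, 22% and 16.4% of all tested genes. Irf1, an early activator of interferon-responsive genes, was among them, with log2 fold changes against wt of 1.61 (adjusted p = 2.20e-08) in the Stat5b-/- line and 0.99 (adjusted p = 2.87e-06) in Stat5a-/-. Irf3 was higher by 0.35 in Stat5b-/- (adjusted p = 0.0321), while Irf8, a factor of B cell and myeloid development, fell by 0.67 on the log2 scale in Stat5a-/- (adjusted p = 0.00145). Irf2 was called in no comparison. Of the 6 feedback inhibitors, 4 were higher in each knockout line than in wt, against 24.2% of all tested genes in Stat5b-/- and 19.8% in Stat5a-/-. Pias1 was higher than in wt in the Stat5b-/- line by 0.25 (adjusted p = 0.0354), with a value of 0.17 (adjusted p = 0.161) in the Stat5a-/- line, and Ptpn6, a phosphatase of blood cells, was higher in both, by 0.29 (adjusted p = 0.0240) and 0.30 (adjusted p = 0.0267). Ptpn2, a phosphatase of STAT proteins, was higher in Stat5a-/- by 0.62 (adjusted p = 0.00175), with -0.15 (adjusted p = 0.368) in Stat5b-/-. Socs1, an inhibitor of JAK kinases, was higher by 1.83 (adjusted p = 1.04e-05) in Stat5a-/- and by 0.76 (adjusted p = 0.00795) in Stat5b-/-, with a direct difference of -1.07 (adjusted p = 0.00114). Usp18, which blocks signalling at the type I receptor and was named after its values were seen, had the other order. It was higher in Stat5b-/- than in wt by 2.35 (adjusted p = 7.64e-08) and than in Stat5a-/- by 1.91 (adjusted p = 1.11e-06), with 0.44 (adjusted p = 0.0680) in Stat5a-/- against wt.

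Of the 22 other antiviral effectors, 20 were higher and 1 lower in Stat5b-/- against wt, 14 were higher and 0 lower in Stat5a-/- against wt, and the direct comparison of the knockout lines called 12 higher and 1 lower on the Stat5b-/- side. Over all tested genes the shares called higher and lower were 24.2% and 22%, 19.8% and 16.3%, and 16.4% and 17.5% in the same order. Their median log2 fold changes were 1.72, 0.74 and 0.71, beside 1.73, 0.82 and 0.80 for the tested Ifit members. Of the 4 most abundant, Samhd1 was at 0.42 (adjusted p = 0.0393) in the Stat5b-/- line and at 0.35 (adjusted p = 0.0974) in the Stat5a-/- line, and Trim25 had 0.54 (adjusted p = 0.00133) and 0.67 (adjusted p = 3.26e-04). Neither was called between the knockout lines (0.073, adjusted p = 0.749, and -0.13, adjusted p = 0.391). Trim30a, at 1.41 (adjusted p = 6.69e-05) in the Stat5b-/- line and 0.75 (adjusted p = 0.00850) in the Stat5a-/- line, and Adar, at 1.08 (adjusted p = 2.51e-06) and 0.49 (adjusted p = 0.00241), were higher in Stat5b-/- than in Stat5a-/- as well, by 0.66 (adjusted p = 0.0187) and 0.59 (adjusted p = 7.52e-04). The lower gene was Bst2, which encodes the tether that holds budding virus at the cell surface, named after its values were seen. Its log2 fold change was -1.08 in Stat5b-/- against wt (adjusted p = 2.14e-05) and 0.23 in Stat5a-/- (adjusted p = 0.193).

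Genes linked to the products of the 2 families were followed too. Of the 3 enzymes of cap methylation, which mark RNA as the cell's own, 0 were called against wt in either line. Over all tested genes, 24.2% were called higher and 22% lower in Stat5b-/-, and 19.8% and 16.3% in Stat5a-/-. With 3 genes, little can be read from 0 calls. Between the knockout lines, Rnmt was lower in Stat5b-/- (-0.54, adjusted p = 0.00433), where 17.5% of all tested genes were lower, and the others were not called. Of 4 enzymes that modify IFITM proteins or work with them, 2 were lower in Stat5b-/- than in wt and 1 in Stat5a-/-, where 22% and 16.3% of all tested genes were lower. Nedd4, a ubiquitin ligase that lowers IFITM3 protein, fell from 817 ± 23.9 normalized CPM in wt to 377 ± 4.57 in Stat5a-/- and 379 ± 40.9 in Stat5b-/- (log2 fold changes -1.12, adjusted p = 1.44e-06, and -1.11, adjusted p = 1.32e-06). Zdhhc2, a palmitoyltransferase, fell by 4.62 in Stat5b-/- (adjusted p = 9.45e-09), with 6 to 18 reads in a Stat5b-/- library, and had -0.24 in Stat5a-/- (adjusted p = 0.301). Zdhhc20 and Zmpste24 were called in neither.

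**Figure D5:**
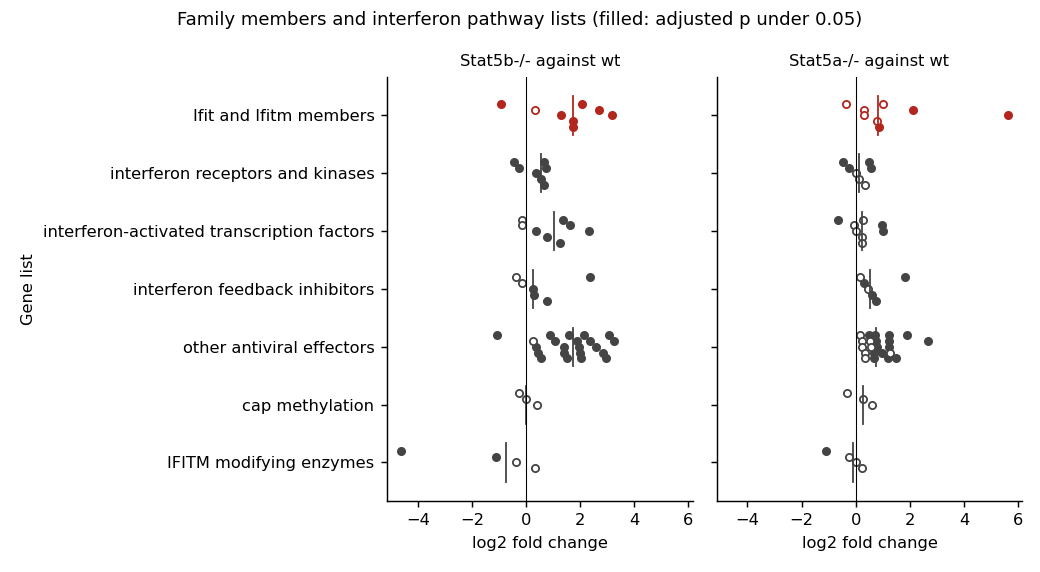
log2 fold changes against wt of the tested members (red) and of 6 pathway lists (grey) in Stat5b-/- (left) and Stat5a-/- (right). Each point is a gene, filled points have an adjusted p under 0.05, and vertical lines are medians. The members and the other antiviral effectors have medians of 1.73 and 1.72 in Stat5b-/- and of 0.82 and 0.74 in Stat5a-/-.

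The pattern of each tested member over the 9 libraries was compared with every other tested gene by Euclidean distance of log2 values centred on the gene's mean. The 3 genes nearest to Ifit1 were Oas2 (distance 0.464), a synthetase whose product activates RNase L, Lcp2 (0.485), an adaptor of T-cell receptor signalling, and Lrig1 (0.569). Those nearest to Ifit3 were Efhd1 (0.774), Lat (0.819), another T-cell adaptor, and Oasl2 (0.898), a relative of Oas2. Nearest to Ifit3b were Gm34006 (0.550), Gbp4 (0.551), an interferon-induced GTPase, and As3mt (0.554). For Ifitm3 they were Uchl1 (0.648), H2-Q4 (0.670), a class I histocompatibility gene, and 9330175E14Rik (0.750). The genes nearest to Ifitm1 were Enthd1 (0.847), Gm43305 (1.07) and Esrrb (1.22), and those nearest to Ifitm2 were Fabp5 (0.317), Alg3 (0.379) and Atp5g1 (0.383). Ifit2 was nearest to Cep72 (0.276), Zfand2a (0.314) and Zfp568 (0.333), and Ifitm10 to Itgb7 (0.390), Ust (0.416) and Tnfrsf9 (0.423). Among the members, Ifit3b was place 156 of 13851 in the order from Ifit1, while Ifit2 was place 3469. The 9 points come from 3 lines, so genes that differ between lines in like order are near each other.

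T-cell transcripts differed between the lines as well. Of the 15 T-cell markers, Stat5b-/- against wt had 14 higher and 0 lower, Stat5a-/- against wt 7 and 0, and Stat5b-/- against Stat5a-/- 13 and 1. The all-gene shares are those given for the antiviral effectors. The share of reads on 35 T-cell receptor beta V genes was 0.00198% to 0.00392% in wt, 0.00292% to 0.00378% in Stat5a-/- and 0.00454% to 0.00763% in Stat5b-/- libraries. With the log2 of this share as a covariate, Ifitm1, Ifitm3 and Ifit1 were still called higher than wt in both lines and Ifit3 in Stat5b-/-. In Stat5b-/- the value of Ifit1 was then 1.12 (adjusted p = 0.0331) and that of Ifit3 1.88 (adjusted p = 0.0129). Ifit3b (0.93, adjusted p = 0.250), Ifitm10 (0.74, adjusted p = 0.154) and Ifitm2 (-0.62, adjusted p = 0.0759) were then no longer called in Stat5b-/- against wt. Between the knockout lines, Ifit1 (0.35, adjusted p = 0.519), Ifit3 (1.11, adjusted p = 0.115), Ifitm10 (0.50, adjusted p = 0.36) and Ifitm2 (-0.30, adjusted p = 0.407) lost their calls, and Ifitm1 and Ifitm3 kept them. The share in Stat5b-/- libraries did not overlap that in the other lines, so this fit cannot tell the share from the line. Ifit3 lost its call while its value moved only from 1.27 to 1.11. Nothing about T-cell RNA is therefore read from the lost calls. The 12 myeloid markers summed to 158 to 209 normalized CPM in wt, 263 to 290 in Stat5a-/- and 344 to 435 in Stat5b-/-, nearly all of it Ly6c2, and Mpo, Elane, S100a8, S100a9 and Cd14 were each at or under 0.180. Of the 4 that passed the filter, 3 were higher and 1 lower in Stat5b-/- against wt. Lyz2 went from a mean of 3.90 in wt to 4.25 in Stat5a-/- and 8.23 in Stat5b-/-, Csf1r from 0.653 to 0.743 and 1.41, and Fcgr1 the other way, from 1.45 to 0.292 and 0.162. The 7 natural killer markers summed to 75.4 to 110 in wt, 99.5 to 127 in Stat5a-/- and 138 to 223 in Stat5b-/-. Of the 6 tested, 5 were higher and 1 lower in Stat5b-/- against wt, the lower being Klrb1c, whose mean was 10.3 in wt libraries, 4.43 in the Stat5a-/- line and 1.63 in the Stat5b-/- line. The part of myeloid and natural killer transcripts in the members' levels was not tested.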

How the data were processed

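Libraries of mRNA from the 9 samples were made with the SENSE mRNA-Seq kit and read as single 50-base ends. The authors trimmed the reads with Trimmomatic, mapped them with STAR to GRCm38 (GENCODE M13), counted them on union gene models with featureCounts 1.5.1, and deposited raw counts for 50686 genes, of which 50376 were named here from GENCODE M21. The recorded command names neither a strand nor a multi-mapping option. Samples were grouped by the genotype in titles and labels, although the free-text descriptions call the knockout samples wild-type.

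The tests were run in edgeR 4.0.16 (R 4.3.3) after TMM scaling (filterByExpr, glmQLFit and glmQLFTest on all 9 libraries, Benjamini-Hochberg over 13852 genes). The size of each log2 fold change divided by the root of its F statistic gave the standard error. Named genes were the family genes, the knocked-out genes, the 4 most abundant genes of each pathway list, the nearest neighbours and the 3 genes nearest in pattern. The members, lists and tests were chosen with earlier results of these data known. The steps were tested on simulated counts. Intervals of counting error are not given, since the reads carry no molecular identifiers and may repeat a molecule.

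Alternatives were RLE scaling, DESeq2 1.42.0, no filter or a mean of 10 counts, only the lines compared, the replicate number as a block, each library left out, the T-cell receptor share as a covariate, a fold limit, Ifit3 and Ifit3b summed and, chosen after seeing the data, an offset for GC content (loess span 0.5) with and without the block. Libraries of 1 line deviated with the GC content of genes, with correlations across genes from -0.48 to 0.52. Protein sequences were not used here, and 1 of the pathway lists is not reported here.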

Additional observations from a re-analysis of the deposited data

Results flagged for a closer look

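Each of these results stands here because the knockout lines differed from each other in the direct test of Stat5b-/- against Stat5a-/- at an adjusted p under 0.05 (edgeR). The log2 difference was 0.893 for Ifit1, 1.27 for Ifit3, 1.09 for Ifitm3 and 0.960 for Ifitm10, all higher in Stat5b-/-, and -2.93 for Ifitm1 and -0.558 for Ifitm2, both lower. With the T-cell receptor share as a covariate, Ifitm1 (-2.78, adjusted p = 8.90e-06) and Ifitm3 (1.05, adjusted p = 0.0385) remained past the threshold, and Ifit1 (0.35, adjusted p = 0.519), Ifit3 (1.11, adjusted p = 0.115), Ifitm2 (-0.30, adjusted p = 0.407) and Ifitm10 (0.50, adjusted p = 0.36) did not. The T-cell receptor share of the Stat5b-/- libraries did not overlap that of the other lines, so the covariate cannot be told apart from the line. With 1 line of each genotype, a difference between these lines cannot be told apart from one between the genotypes.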

How the results depend on the processing

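Of the counts of called members under other settings, 102 stayed within 1.5 times the main count and 18 did not. Members lower in Stat5b-/- than in wt fell from 1 to 0 with the T-cell receptor share as a covariate and with a fold limit of 2. Members higher in Stat5a-/- than in wt went from 3 to 6 with the GC offset, alone or with the replicate block, and ranged from 3 to 5 with 1 library left out, 5 being without Stat5b-/- replicate 3. Members lower in Stat5a-/- than in wt went from 0 to 1, Ifitm2, under RLE scaling, DESeq2, no filter, and the GC offset alone or with the block, and ranged from 0 to 1 with 1 library left out, 1 being without wt replicate 2, Stat5a-/- replicate 2 or Stat5b-/- replicate 1 or 3. Between the knockout lines, the members higher in Stat5b-/- went from 4 to 1 with the covariate and 2 with the fold limit, and the members lower from 2 to 1 with either.

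Of the member fold changes under other settings, 415 kept direction and side of the threshold, 26 came to pass it, 7 no longer passed it and 5 turned. The last were all Ifit2 in Stat5b-/- against Stat5a-/-, which was 0.045 as reported, ranged from -0.045 to 0.187 with 1 library left out (without Stat5b-/- replicate 1 the highest), and was -0.027 without Stat5a-/- replicate 2, -0.045 and -0.023 without Stat5b-/- replicates 2 and 3, and -0.085 and -0.089 with the GC offset alone and with the block. The log2 fold change of Ifitm1 in Stat5a-/- against wt lay between 5.49 and 5.76 under all settings. The cause was not tested. Same-numbered libraries did not deviate together (mean correlation -0.088 over 9 pairs, against 0.044 over 18 others), and the replicate block alone left the counts at 6 and 1, 3 and 0, and 4 and 2. Ifit3b and Ifitm6, with few reads, are limited by depth.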
